A study of Mus musculus with 18 samples.

Results

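Liver tumours that arose in wild type (WT) mice after a single injection of diethylnitrosamine (DEN) were compared with normal livers of untreated WT mice. DEN is a hepatocarcinogen that pericentral cytochrome P450 enzymes turn into an alkylating agent. The comparison used 6 of the 18 RNA-seq libraries of the series, 3 WT tumours and 3 WT normal livers, and every gene with an average of 0.5 TPM or more over these 6, which left 13644 of 54838 annotated genes. TPM, the unit of the table, corrects read counts for transcript length and scales every library to the same total, so a value is a share of the library. All mice were of the C57BL/6 strain and 36 weeks old by the labels. Tumour-bearing mice had received DEN at 25 mg/kg on postnatal day 12, and the study's methods describe male pups and visible tumours. The normal livers had no DEN, so exposure to DEN and tumour growth cannot be told apart in this comparison. WT non-tumour livers, the tissue beside tumours of DEN-treated WT mice, are therefore given where they bear on a result. Global knockout (GKO) mice, which lack the miR-181ab1 microRNA cluster in all tissues, supplied a second comparison of tumours with normal livers that shares no library with the first. Which libraries came from one mouse is not given, so the p-values measure the spread between these samples only.

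Reads on genes numbered 17573522 to 19563388 in the WT tumours and 11925033 to 19178365 in the normal livers. WT tumours 1 and 2 were the most alike of the 6 libraries, with a Pearson correlation of 0.98 across genes on the log2 scale, whereas WT tumour 3 correlated with them at 0.914 and 0.917. The 3 normal livers correlated with each other at 0.962 to 0.975 and with the tumours at 0.853 to 0.884. WT tumour 3 thus stood apart from its own group, and the counts below are also given without it where it moved them. The libraries were liver by their markers. Summed TPM of the 12 defining hepatocyte markers was 206631 to 238168 in the tumours and 94234 to 99941 in the normal livers. The most abundant markers weigh most in such a sum, and the calls of the members are given below.

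By way of background, hepatocytes are zoned along the lobule. Cells next to the central vein receive Wnt signals, make glutamine and carry much of the drug metabolism, while cells next to the portal vein make glucose and urea. Male mouse liver also holds a programme of genes driven by pulses of growth hormone. DEN tumours of mice grow from hepatocytes and commonly carry activating mutations of the RAS and MAPK pathway, which is also the pathway that induces its own feedback phosphatases and Sprouty proteins. A fetal gene programme, of which alpha-fetoprotein is the best known member, often returns in liver tumours.

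The tumours differed from the normal livers in a large share of the genes tested. At a Benjamini-Hochberg adjusted p under 0.05 in limma, 3750 of 13644 genes were called (27.5%), of which 2887 were higher (21.2%) and 863 lower (6.33%) in the tumours. Among the called genes 436 were over 4-fold higher and 211 over 4-fold lower. The counts of list members below are to be read beside the shares of 21.2% and 6.33% over all genes. The lists were chosen with earlier results of these data known, so these counts are not independent evidence of a direction. The balance of higher and lower calls depended on the scale. Mitochondrially encoded transcripts took 5.88, 5.13 and 3.63% of TPM in WT tumours 1, 2 and 3 and 16.7, 17.4 and 10.7% in normal livers 1, 2 and 3, and the median gene stood higher in each tumour than in any normal liver. When each library was centred on its median, a shift of 0.39 on the log2 scale, 1188 genes were called higher (8.71%) and 1705 lower (12.5%), while quantile normalization gave 1399 and 1442, and voom on whole reads recovered from TPM gave 1645 and 1122. All 863 genes that fell before centring also fell after it, 1188 of the 2887 that rose kept their call, and no called gene changed sign. The number of calls ranged from 1428 without WT normal liver 1 to 5525 without WT tumour 3, and 1343 genes were called whichever of the 6 libraries was left out.

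**Figure D1:**
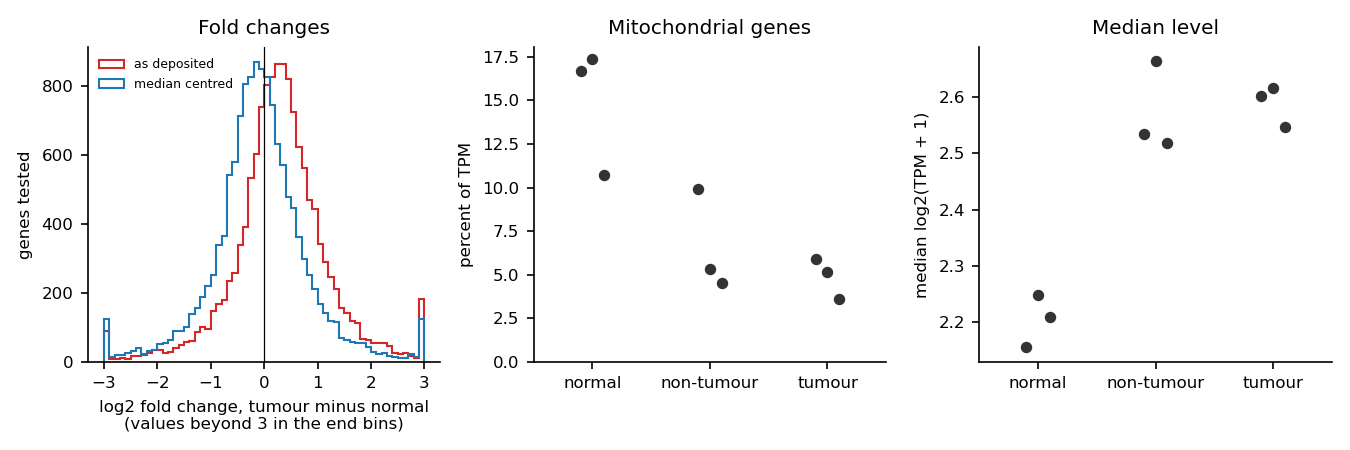
The left panel is a histogram of the log2 fold change (WT tumour minus WT normal liver) over the 13644 genes tested, as deposited and after median centring. The middle panel shows, with 1 point per WT library, the percentage of TPM on mitochondrially encoded genes. The right panel shows the median log2(TPM + 1) of genes averaging 0.5 TPM or more over all 18 libraries. The 3 tumours lay between 3.63 and 5.88% and the 3 normal livers between 10.7 and 17.4%.

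The gene that rose most was Cyp2a4, which encodes a steroid hydroxylase more abundant in female than in male mouse liver. It stood at 16013, 14621 and 1905 TPM in WT tumours 1, 2 and 3 and at 10.2, 8.09 and 7.99 TPM in normal livers 1, 2 and 3. Every tumour was far above every normal liver, and WT tumour 3 was the lowest of the tumours. The log2 fold change was 9.62 ± 0.79 (adjusted p = 0.00065), here and below with its standard error, the change being that of log2(TPM + 1), which understates changes of low genes. Its neighbour Cyp2a5, the mouse coumarin hydroxylase, was at 4316, 3691 and 67.4 TPM in the tumours and 304, 409 and 1068 TPM in the normal livers, so that tumours 1 and 2 lay above and tumour 3 below all normal livers (1.01 ± 1.56, adjusted p = 0.66). The RefSeq start-site windows of these near-identical genes are shown because their levels parted while their upstream sequences hardly differ. Each runs 5′ to 3′ on the GRCm38.p6 build, Cyp2a4 at chr7:26306943-26307241 (+ strand) and Cyp2a5 at chr7:26835089-26835387 (+ strand), and capitals mark the 5 of 299 aligned bases that differ (98.3% identity).
Cyp2a4: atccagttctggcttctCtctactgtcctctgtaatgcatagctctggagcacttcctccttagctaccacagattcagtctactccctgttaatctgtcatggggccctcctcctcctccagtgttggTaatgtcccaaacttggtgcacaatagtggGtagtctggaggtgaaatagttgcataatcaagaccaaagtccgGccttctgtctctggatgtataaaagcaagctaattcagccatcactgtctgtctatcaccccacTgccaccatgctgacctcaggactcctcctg
Cyp2a5: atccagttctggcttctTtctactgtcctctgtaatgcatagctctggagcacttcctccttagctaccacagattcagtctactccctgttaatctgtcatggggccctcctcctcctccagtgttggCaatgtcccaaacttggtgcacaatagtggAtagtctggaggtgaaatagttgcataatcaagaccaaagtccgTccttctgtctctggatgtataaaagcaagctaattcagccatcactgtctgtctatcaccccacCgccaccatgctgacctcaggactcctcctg
Counted from 1 at the 5′ end of the printed stretch, with the Cyp2a4 base first, the differences are C18T, T130C, G160A, G204T and T269C. Of all 50-base windows of the Cyp2a4 transcript, 36.1% also occur in Cyp2a5, so reads of those stretches could have been counted for either gene or for none.

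Other members of the 12 largest rises included secreted and surface proteins known from fetal liver, mucosa or tumours. Tff3, a trefoil peptide of mucosal surfaces at chr17:31125306-31129646, was at 8160.4, 7777 and 3096 TPM in the tumours and 7.77, 2.97 and 96.6 TPM in the normal livers (8.60 ± 1.13, adjusted p = 0.0036). Afp, the fetal serum protein alpha-fetoprotein at chr5:90490737-90508907, was at 2353, 3334 and 66.1 TPM against 1.92, 1.24 and 0.683 TPM (8.50 ± 1.39, adjusted p = 0.0075). As the naming rule required of the 12 largest rises, Cyp2a4 included, the groups did not overlap for Tff3 and Afp. Tumour 3 was the lowest tumour for both genes. Gpc3, a cell-surface heparan sulphate proteoglycan and a histological marker of hepatocellular carcinoma, was at 213, 277 and 108 TPM against 0.383, 0.46 and 0.142 TPM (7.14 ± 0.35, adjusted p = 0.00013). Akr1c18, a progesterone-reducing aldo-keto reductase, was at 488, 552 and 244 TPM against 0.61, 0 and 0.238 TPM (8.33 ± 0.35, adjusted p = 9.5e-05). All 3 tumours were alike for Erich4, at 138, 149.7 and 147 TPM against 0.162, 0 and 0.21 TPM (7.02 ± 0.16, adjusted p = 1.5e-05).

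Igfbp1, a binding protein that holds insulin-like growth factors in the circulation, was at 2589.8, 2328 and 3716 TPM against 10.7, 8.78 and 41.6 TPM (7.38 ± 0.56, adjusted p = 0.00052). Lcn2, a siderophore-binding protein of the acute-phase response, was at 869, 906 and 971 TPM against 6.06, 9.7 and 1.31 TPM (7.35 ± 0.53, adjusted p = 0.00046). Both were as high in tumour 3 as in tumours 1 and 2. Wfdc15b, a member of the whey acidic protein family, was highest in tumour 3, at 118, 87.9 and 917 TPM against 0.257, 0 and 1.34 TPM (7.22 ± 0.87, adjusted p = 0.0027). Csn3, the kappa-casein of milk, was at 164, 134 and 92.3 TPM against 0, 0.136 and 0 TPM, so 2 of the normal livers were listed at 0 (6.93 ± 0.24, adjusted p = 5.8e-05). Ly6d, a GPI-anchored surface protein, was at 1477, 1629 and 169 TPM against 5.34, 6.81 and 3.22 TPM (6.97 ± 0.85, adjusted p = 0.0028), but a single WT non-tumour liver also reached 994 TPM. Slpi, a secreted inhibitor of leukocyte proteases, was at 1292, 1544 and 29.1 TPM against 4.24, 5.05 and 0.406 TPM (6.79 ± 1.51, adjusted p = 0.02). Slpi was called in the fit without tumour 3 alone among the 6 that left out a library (adjusted p 0.00041 to 0.066).

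Of 22 tested members of a list of oncofetal and liver tumour markers, 16 rose and none fell. The median log2 fold change of the 22 was 5.03, beside 0.29 over all genes tested. The list was chosen with earlier results of these data known, so its count and median are not independent evidence of a rise. After median centring 15 were higher and 1 lower, and 13 rose when tumours 1 and 2, the most alike libraries, were averaged into 1. Of the 22, 14, 14 and 19 were called higher without WT tumour 1, 2 and 3, and 13, 14 and 14 without WT normal liver 1, 2 and 3. Members not called were Spink1, Tmem54, Cd24a, Akr1b10, Gstp1 and Peg3.

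**Figure D2:**
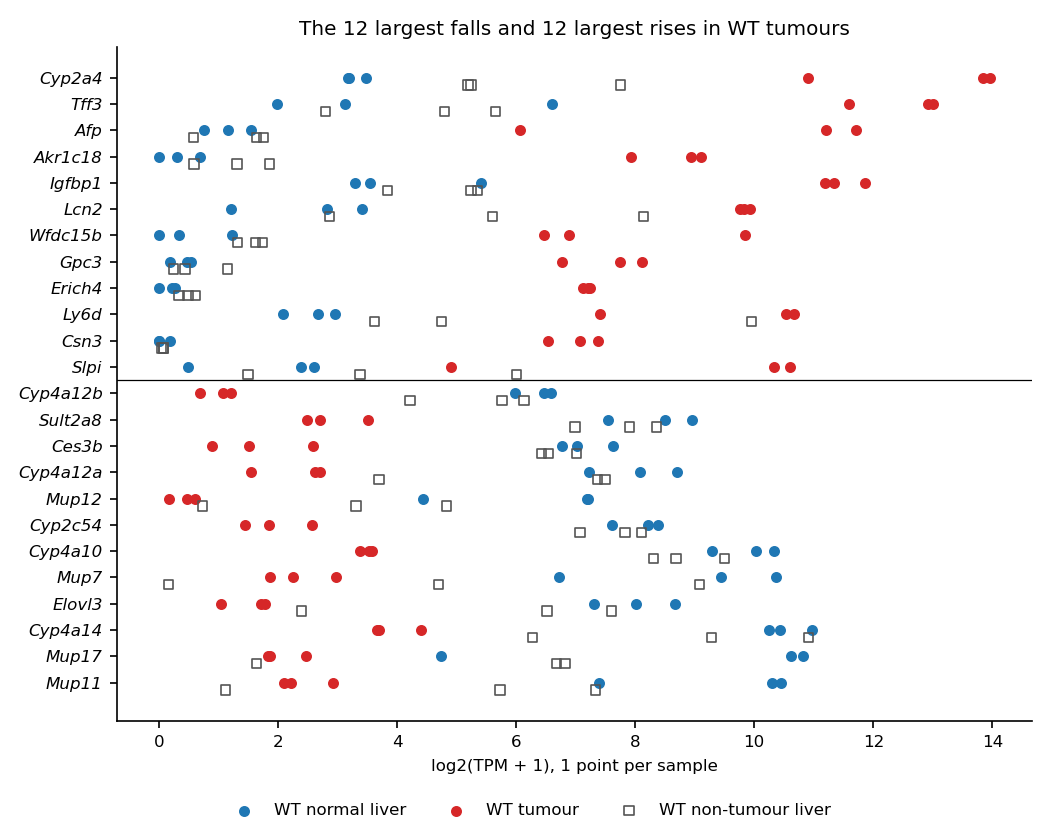
Levels of the 12 genes that fell most (lower block) and the 12 that rose most (upper block) in WT tumours, as log2(TPM + 1) on the x axis with 1 point per library. Filled points are WT tumours and WT normal livers and open squares are WT non-tumour livers, which lay nearer the normal livers for most of these genes but reached 994 TPM for Ly6d in 1 library.

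The largest falls were in genes of male-type liver and of fatty acid hydroxylation. Mup11, a major urinary protein that carries pheromones in male urine, was at 6.6, 3.63 and 3.31 TPM in the tumours and 1394, 1253 and 168 TPM in the normal livers (-6.97 ± 0.80, adjusted p = 0.0022). Mup17 of the same family was at 4.57, 2.63 and 2.57 TPM against 1573, 1811 and 25.7 TPM (-6.67 ± 1.54, adjusted p = 0.022). Mup7 was at 3.75, 6.84 and 2.63 TPM against 691, 1323 and 105 TPM (-6.48 ± 0.88, adjusted p = 0.0041), and Mup12 at 0.523, 0.394 and 0.122 TPM against 145, 146 and 20.7 TPM (-5.86 ± 0.72, adjusted p = 0.0029). In all 4 genes normal liver 3 was the lowest of its group yet above each tumour, and the call of Mup17 was lost without WT tumour 1, WT tumour 2, WT normal liver 1 or WT normal liver 2, with adjusted p 0.00044 to 0.085 over the 6 fits. The family is near-identical: 77.8% of the 50-base windows of Mup11, 78.1% of Mup17, 86.7% of Mup7 and 85.4% of Mup12 occur in another family member, so the split of reads among them is uncertain.

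Cyp4a14, a microsomal omega-hydroxylase of fatty acids and a target of the receptor PPAR alpha, was at 12, 11.7 and 20.3 TPM against 1219, 1381 and 2008 TPM (-6.63 ± 0.29, adjusted p = 9.5e-05). Cyp4a10, its paralogue, was at 11, 9.35 and 10.5 TPM against 1049, 1291 and 629 TPM (-6.40 ± 0.28, adjusted p = 9.5e-05). In both genes every tumour was far below every normal liver, and in Cyp4a10 the tumours were alike. The male-biased pair Cyp4a12a and Cyp4a12b was at 5.14, 5.53 and 1.92 and at 1.31, 1.12 and 0.615 TPM in the tumours, against 271, 415 and 148 and 62, 95.6 and 87.8 TPM in the normal livers (log2 fold changes -5.71 ± 0.46 and -5.35 ± 0.23, adjusted p = 0.00064 and 9.5e-05). Windows shared with another family member made up 48.9% of Cyp4a12a, 49.5% of Cyp4a12b and 29.8% of Cyp4a10 but 0.235% of Cyp4a14. Elovl3, an elongase of long-chain fatty acids, was at 2.43, 2.28 and 1.06 TPM against 405, 258 and 157 TPM (-6.48 ± 0.38, adjusted p = 0.00024). Cyp2c54, an arachidonic acid epoxygenase, was at 4.92, 2.62 and 1.73 TPM against 333, 297 and 194 TPM (-6.11 ± 0.34, adjusted p = 0.00021), with 25.7% of its windows shared. The other 2 of the 12 were Ces3b, a carboxylesterase, at 0.849, 1.85 and 5.04 TPM against 129.8, 196 and 108 TPM (-5.47 ± 0.45, adjusted p = 0.00065, with 26.2% of windows shared), and Sult2a8, a sulphotransferase of bile acids, at 5.49, 4.6 and 10.3 TPM against 362, 497 and 186 TPM (-5.44 ± 0.42, adjusted p = 0.00057). As the naming rule required, the lowest normal liver was above the highest tumour for each of the 12 genes.

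Genes of cell division were higher in the tumours, most of all in tumours 1 and 2. Of 24 tested mitosis genes, 15 rose and none fell, with a median log2 fold change of 2.12, and in all 24 the tumours were above the normal livers without overlap, as was the case for 35.6% of all genes. After median centring 4 were called and with tumours 1 and 2 averaged 1. Of the mitosis genes, 1, 1 and 24 were called higher without WT tumour 1, 2 and 3, and 1, 1 and 1 without WT normal liver 1, 2 and 3. Their summed level was 32 to 366 TPM in the tumours and 6.87 to 9.12 TPM in the normal livers. Ube2c, the ubiquitin-conjugating enzyme of the anaphase-promoting complex, was at 71.2, 55.1 and 1.92 TPM in the tumours and 0.0566, 0.476 and 0.737 TPM in the normal livers (4.03 ± 1.16, adjusted p = 0.042). Cdc20, an activator of that complex, was at 54.7, 44.7 and 3.15 TPM against 0.473, 0.723 and 0.718 TPM (3.75 ± 0.93, adjusted p = 0.028). Plk1, a mitotic kinase, was at 32.6, 29.1 and 1.8 TPM against 0.402, 0.512 and 0.174 TPM (3.38 ± 0.91, adjusted p = 0.035), and Ccnb2, a B-type cyclin, at 49.5, 37 and 4.14 TPM against 1.15, 1.54 and 0.626 TPM (3.37 ± 0.82, adjusted p = 0.025). Tumour 3 was the lowest tumour for each of these genes, and in the fits with 1 library left out each was called only without tumour 3, with adjusted p of up to 0.13 otherwise.

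Of 21 tested DNA replication genes, 11 rose and 1, Mcm10 (not called without WT tumour 1, WT tumour 2, WT normal liver 1, WT normal liver 2 or WT normal liver 3), fell, with a median log2 fold change of 1.23. After centring 4 were higher and 1 lower, and with tumours 1 and 2 averaged 3 were higher. Of the replication genes, 2, 3 and 19 were called higher without WT tumour 1, 2 and 3, and 1, 3 and 5 without WT normal liver 1, 2 and 3. Rrm2, the small subunit of ribonucleotide reductase, was at 28.8, 29.3 and 2.58 TPM against 1.01, 1.06 and 0.622 TPM (2.97 ± 0.80, adjusted p = 0.035, not called without WT tumour 1, WT tumour 2, WT normal liver 1, WT normal liver 2 or WT normal liver 3, with adjusted p 8.4e-05 to 0.1 over the 6 fits). Mcm5 and Mcm2 belong to the replicative helicase. Mcm5 was at 5.82, 7.01 and 1.59 TPM against 0.443, 0 and 0.24 TPM (2.10 ± 0.43, adjusted p = 0.016, not called without WT tumour 1, WT normal liver 1 or WT normal liver 2, with adjusted p 0.00057 to 0.059 over the 6 fits). Mcm2 was at 5.91, 6.27 and 3.19 TPM against 0.423, 0.857 and 0.427 TPM (1.93 ± 0.26, adjusted p = 0.0041) and was called with any 1 library left out. Uhrf1, which brings the maintenance DNA methyltransferase to replicated DNA, was at 5.28, 4.95 and 0.638 TPM against 0, 0.106 and 0 TPM (1.93 ± 0.51, adjusted p = 0.034, not called without WT tumour 1, WT tumour 2, WT normal liver 1, WT normal liver 2 or WT normal liver 3, with adjusted p 0.00028 to 0.11 over the 6 fits).

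Start-site windows of these genes, 300 bases of RefSeq promoter (250 before and 50 after the start), were searched for letters on both strands. TTTGGCGC or TTTCGCGC, forms of the E2F motif, occurred in 8 of 18 replication genes with a window (44.4%), in 5% of mitosis genes and in 1.78% of the 9545 tested genes with a window. The share was 1.77% among genes that rose and 1.6% among genes that fell. TTTGAA, the core of the cell cycle homology region, was searched after the values were seen and occurred in 14 of 20 mitosis genes (70%) against 14.7% of all tested genes. It was in 14% of genes that rose and 16.5% of genes that fell. In the other lists searched its share ran from 6.67% (cholesterol synthesis) to 44.8% (cytochrome P450 families 1 to 3, 13 of 29 windows), so these letters were not particular to mitosis genes. CCAAT, also searched afterwards, was in 85% of the mitosis windows, 83.3% of the replication windows and 42.5% of all. The 2 stretches shown, each from the called gene of its list with the largest rise that holds the motif, carry the E2F and the homology-region letters in capitals, Mcm5 at chr8:75109331-75109388 (+ strand) and Ube2c at chr2:164769875-164769930 (+ strand). The capitals of Ube2c, TTCAAA, read TTTGAA on the opposite strand.
Mcm5: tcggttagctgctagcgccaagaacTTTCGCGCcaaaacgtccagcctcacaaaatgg
Ube2c: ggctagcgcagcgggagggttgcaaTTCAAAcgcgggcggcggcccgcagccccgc
Such matches describe the letters of a window and are not evidence of binding.

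Cyclins of the G1 phase and inhibitors of their kinases were both higher. Of 15 tested genes 10 rose and none fell, and 6 were called after centring and 6 with tumours 1 and 2 averaged. Of the G1 genes, 6, 6 and 11 were called higher without WT tumour 1, 2 and 3, and 6, 6 and 6 without WT normal liver 1, 2 and 3. Ccnd1, cyclin D1, was at 13.4, 14.8 and 15.9 TPM in the tumours, with little spread, against 0.469, 0.86 and 1.67 TPM in the normal livers (3.01 ± 0.24, adjusted p = 0.00064). Ccne1, cyclin E1, was at 54.5, 43.5 and 7.66 TPM against 0.498, 0.338 and 0.54 TPM (4.25 ± 0.66, adjusted p = 0.0064). Inhibitors of cyclin-dependent kinases rose beside them. Cdkn2b, which encodes the p15 protein, was at 37.7, 45.2 and 23.3 TPM against 0.318, 0 and 0 TPM (5.003 ± 0.27, adjusted p = 0.00019), and Cdkn2a, which encodes the p16 and ARF proteins, at 52.3, 83.6 and 7.93 TPM against 0.503, 0.192 and 0.409 TPM (4.65 ± 0.77, adjusted p = 0.0077). Cdkn1a, which encodes the p21 protein and is a p53 target, was at 47.9, 56.3 and 15.9 TPM against 1.58, 1.74 and 5.15 TPM (3.36 ± 0.54, adjusted p = 0.0071). All of these kept their call with any 1 library left out, although tumour 3 was the lowest tumour for each inhibitor.

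Of 16 p53 target genes 7 rose and none fell, and 6 were called higher after centring and 6 after averaging tumours 1 and 2. Of the p53 targets, 6, 6 and 16 were called higher without WT tumour 1, 2 and 3, and 3, 6 and 6 without WT normal liver 1, 2 and 3. Phlda3, which restrains AKT signalling, was at 108, 119 and 8.94 TPM against 0.661, 0.938 and 1.35 TPM (4.69 ± 0.92, adjusted p = 0.013, not called without WT normal liver 1, with adjusted p 5.2e-05 to 0.059 over the 6 fits). Btg2, an antiproliferative factor, was at 136, 130.1 and 44.2 TPM against 1.13, 2.34 and 8.35 TPM (4.53 ± 0.64, adjusted p = 0.0047). Trp53inp1, a stress-induced nuclear protein, was at 62.8, 57.1 and 19.8 TPM against 5.71, 6.48 and 8.91 TPM (2.42 ± 0.44, adjusted p = 0.01, not called without WT normal liver 1, with adjusted p 0.00034 to 0.051 over the 6 fits). Mdm2, Bax and Gdf15 did not pass the test.

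Feedback genes of the MAPK pathway were higher in all 3 tumours. Of 15 tested 11 rose and none fell, with 8 calls after centring and 10 with tumours 1 and 2 averaged. Of the feedback genes, 10, 8 and 14 were called higher without WT tumour 1, 2 and 3, and 8, 8 and 9 without WT normal liver 1, 2 and 3. Dusp5, a nuclear phosphatase of ERK, was at 23.6, 20.04 and 25.5 TPM in the tumours and 0.417, 0.364 and 0.697 TPM in the normal livers (4.01 ± 0.17, adjusted p = 9.5e-05). Egr1, an immediate early transcription factor, was at 63.5, 72.5 and 26.8 TPM against 3.15, 5.92 and 2.12 TPM (3.51 ± 0.45, adjusted p = 0.0032). Dusp4, another phosphatase of the pathway, was at 5.61, 8.22 and 3.06 TPM against 0.591, 0.37 and 0.35 TPM (2.13 ± 0.31, adjusted p = 0.005), and Etv5, an ETS factor, at 5.57, 7.42 and 5 TPM against 1.08, 0.96 and 1.17 TPM (1.74 ± 0.18, adjusted p = 0.0017). Dusp5 differed little among the tumours, and all 4 genes were called with any 1 library left out. Dusp6, Spry1, Spry2, Spry4, Spred1, Spred2 and Jun also rose, although Spry2 was not called without WT tumour 2, WT normal liver 1 or WT normal liver 2, Spred1 not without WT tumour 1, WT tumour 2, WT normal liver 1, WT normal liver 2 or WT normal liver 3 and Jun not without WT tumour 2, WT normal liver 1, WT normal liver 2 or WT normal liver 3. In contrast, Fos, Ier3, Etv4 and Phlda1 did not pass the test. Fgfr2, a receptor tyrosine kinase upstream of the pathway, was at 16.7, 12.9 and 27.8 TPM against 2.87, 4.27 and 4.42 TPM (2.000 ± 0.30, adjusted p = 0.0057).

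Pericentral genes were lower in every tumour. Of 23 tested pericentral and Wnt target genes, 19 fell and 1, the amino acid transporter Slc1a4, rose, with a median log2 fold change of -2.24. The same numbers were called after median centring, and 15 were lower with tumours 1 and 2 averaged. Of the pericentral genes, 12, 15 and 19 were called lower without WT tumour 1, 2 and 3, and 11, 12 and 16 without WT normal liver 1, 2 and 3. Glul, glutamine synthetase, which marks the innermost ring of hepatocytes around the central vein, was at 49.98, 42.5 and 18.5 TPM in the tumours and 579, 618 and 620.02 TPM in the normal livers (-4.11 ± 0.36, adjusted p = 0.00084). Cyp2e1, the ethanol-inducible P450 that activates DEN, was at 259, 324 and 134 TPM against 4856, 6669.5 and 4744 TPM (-4.57 ± 0.36, adjusted p = 0.00057). Cyp1a2, which oxidises arylamines and caffeine, was at 43.2, 39.6 and 8.16 TPM against 619, 676 and 577 TPM (-4.62 ± 0.59, adjusted p = 0.0032). Tumour 3 was the lowest library for all 3 genes. Oat, ornithine aminotransferase, was at 167, 93.8 and 9.36 TPM against 1180.02, 1379 and 1329 TPM (-4.56 ± 0.95, adjusted p = 0.016, not called without WT normal liver 1, WT normal liver 2 or WT normal liver 3, with adjusted p 0.00048 to 0.062 over the 6 fits). Axin2, Nkd1, Sp5 and Notum, feedback targets of canonical Wnt signalling, fell by 1.29, 0.96, 2.63 and 2.47 on the log2 scale, with Nkd1 not called without WT tumour 1, WT tumour 2, WT normal liver 1 or WT normal liver 2.

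CTTTGAT, a TCF/LEF motif, was in 3 of 15 pericentral windows (20%), against 3.02% of all tested genes, 6.04% of genes that fell and 2.33% of genes that rose. The stretch of Slc1a2, a glutamate transporter of pericentral hepatocytes that was at 0.774, 0.603 and 0.138 TPM against 21.9, 20.7 and 30.6 TPM (-4.08 ± 0.24, adjusted p = 0.00025), is shown with the motif in capitals (chr2:102706206-102706262 (+ strand)). The capitals, ATCAAAG, read CTTTGAT on the opposite strand.
Slc1a2: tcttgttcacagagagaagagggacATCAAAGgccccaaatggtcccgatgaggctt
Rspo3, the endothelial ligand that strengthens Wnt signalling at the central vein, was at 0.352, 0.985 and 0.0733 TPM against 5.77, 4.92 and 3.78 TPM (-2.02 ± 0.27, adjusted p = 0.004). Wnt10a, a Wnt ligand, was at 148, 142 and 0 TPM against 0.119, 0.137 and 0.0776 TPM (4.64 ± 1.84, adjusted p = 0.1). It was therefore high in 2 tumours, listed at 0 in tumour 3, and not called. Among the fits that left out a library, Wnt10a was called only without tumour 3 (adjusted p = 2.2e-05).

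Periportal genes moved in both directions. Of 25 tested 7 rose and 4 fell, with a median of 0.37, and after centring 4 rose and 4 fell. Of the periportal genes, 5, 5 and 7 were called higher without WT tumour 1, 2 and 3, and 1, 3 and 7 without WT normal liver 1, 2 and 3. Aldh1b1, a mitochondrial aldehyde dehydrogenase, was at 231, 227 and 270.3 TPM against 7.18, 2.74 and 42.1 TPM (4.47 ± 0.81, adjusted p = 0.01, not called without WT normal liver 1, with adjusted p 0.0016 to 0.05 over the 6 fits). Cdh1, E-cadherin, was at 27.6, 28.1 and 56.2 TPM against 3.51, 3.84 and 4.73 TPM (2.86 ± 0.30, adjusted p = 0.0017). In the other direction, Igf1, the main endocrine growth factor of the liver, was at 3.22, 3.15 and 21.2 TPM against 187, 170.4 and 211 TPM (-4.70 ± 0.63, adjusted p = 0.004), and Cyp2f2, a periportal P450, at 13.4, 18.3 and 36 TPM against 301, 372 and 428 TPM (-4.06 ± 0.36, adjusted p = 0.00085). Tumour 3 was the highest tumour for Igf1, Cyp2f2 and Cdh1. The urea cycle, a periportal pathway of 8 genes, had 2 that fell, Otc (-0.90 ± 0.24, adjusted p = 0.032, not called without WT tumour 2, WT normal liver 1, WT normal liver 2 or WT normal liver 3, with adjusted p 0.033 to 0.11 over the 6 fits) and the aspartate-glutamate carrier Slc25a13 (-0.75 ± 0.21, adjusted p = 0.041, not called without WT tumour 1, WT tumour 2, WT normal liver 1, WT normal liver 2 or WT normal liver 3, with adjusted p 0.0042 to 0.13 over the 6 fits).

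Of 32 tested P450 genes of families 1 to 3, which oxidise drugs and steroids, 4 rose and 13 fell. After centring 3 rose and 16 fell, and with tumours 1 and 2 averaged 3 rose and 11 fell. Of the P450 genes, 12, 11 and 18 were called lower without WT tumour 1, 2 and 3, and 10, 11 and 12 without WT normal liver 1, 2 and 3. The rises were Cyp2a4, Cyp2b9, Cyp2b13 and Cyp3a44, all known as female-biased, and Cyp3a44 was not called without WT tumour 1, WT tumour 2, WT normal liver 1, WT normal liver 2 or WT normal liver 3. Cyp2b9 was at 113, 80.8 and 40.1 TPM against 4.71, 0.42 and 0.255 TPM (5.07 ± 0.64, adjusted p = 0.0032). Cyp2c37, an epoxygenase like Cyp2c54, was at 9.15, 7.07 and 9.81 TPM against 373, 333 and 298 TPM (-5.12 ± 0.19, adjusted p = 5.8e-05), with 30.1% of its windows shared with other Cyp2c genes. Cyp3a11, the main xenobiotic P450 of mouse liver, was at 137, 136 and 119 TPM against 805, 772 and 1074 TPM (-2.73 ± 0.20, adjusted p = 0.00049). The tumours were alike in Cyp2c37 and Cyp3a11. CAAAGTCCA, the core of the HNF4A motif, was in 6 of 29 P450 windows (20.7%), against 0.691% of all tested genes and 1.6% of genes that fell. The stretch of Cyp2c67, which was at 26.5, 27.1 and 24.1 TPM against 216, 268 and 245 TPM (-3.18 ± 0.17, adjusted p = 0.00018) and shares 52.8% of its windows with paralogues, is shown with the motif in capitals (chr19:39649134-39649192 (- strand)).
Cyp2c67: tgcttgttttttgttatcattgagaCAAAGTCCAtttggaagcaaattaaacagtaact

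Of 26 genes of phase II conjugation 2 rose and 8 fell, with 11 lower after centring. Of the phase II genes, 8, 7 and 12 were called lower without WT tumour 1, 2 and 3, and 6, 7 and 7 without WT normal liver 1, 2 and 3. Nat8, an acetyltransferase of cysteine conjugates, was at 0.539, 1.3 and 2.62 TPM against 47.5, 58.5 and 53.7 TPM (-4.53 ± 0.31, adjusted p = 0.00041). Ugt2b38, a glucuronosyltransferase, was at 0.128, 0.193 and 0.12 TPM against 3.97, 8.33 and 2.58 TPM (-2.26 ± 0.35, adjusted p = 0.0061). Sult5a1, a sulphotransferase, was at 0, 0.0826 and 0.103 TPM against 3.63, 3.95 and 1.08 TPM (-1.77 ± 0.35, adjusted p = 0.013, not called without WT normal liver 1, with adjusted p 0.0037 to 0.062 over the 6 fits). Of 22 hepatocyte transcription factors 2 rose, Foxa3 among them (not called without WT normal liver 1 or WT normal liver 2), and 5 fell, and the values of Hnf4a differed by 0.45 ± 0.20 (adjusted p = 0.13). Of the transcription factors, 3, 3 and 7 were called lower without WT tumour 1, 2 and 3, and 3, 3 and 4 without WT normal liver 1, 2 and 3. Onecut2, a cut-homeodomain factor, was at 0.298, 0.309 and 1.88 TPM against 21.3, 14.7 and 12.7 TPM (-3.31 ± 0.36, adjusted p = 0.0019). Tbx3, a T-box factor and Wnt target of pericentral cells, was at 1.13, 2.44 and 0.359 TPM against 17.7, 13.3 and 10.01 TPM (-2.74 ± 0.37, adjusted p = 0.004). The nuclear receptors that fell included Nr1h4 (-1.54 ± 0.33, adjusted p = 0.017), which senses bile acids, and Nr1i3 (-1.69 ± 0.42, adjusted p = 0.027, not called without WT tumour 1, WT tumour 2, WT normal liver 1, WT normal liver 2 or WT normal liver 3, with adjusted p 0.00069 to 0.091 over the 6 fits), which senses xenobiotics.

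Genes with male-biased, growth hormone dependent expression in mouse liver were mostly lower. Of 28 tested 21 fell and none rose, with a median log2 fold change of -2.67, beside 6.33% of all genes lower. After centring 24 fell, and with tumours 1 and 2 averaged 17. Of the male-biased genes, 17, 16 and 24 were called lower without WT tumour 1, 2 and 3, and 15, 16 and 19 without WT normal liver 1, 2 and 3. Besides the Mup genes, Elovl3, Cyp4a12a and Cyp4a12b, these included Slco1a1, an uptake transporter of organic anions, at 2.13, 2.01 and 0.923 TPM against 71.8, 83.6 and 36.2 TPM (-4.54 ± 0.36, adjusted p = 0.00059). Hsd3b5, a male-specific steroid reductase, fell by 4.56 on the log2 scale, and Igfals, the acid-labile subunit that stabilises circulating IGF1, by 1.98. Hsd3b5 was not called without WT normal liver 1 or WT normal liver 2, and Igfals not without WT tumour 1, WT tumour 2, WT normal liver 1, WT normal liver 2 or WT normal liver 3. Of 18 tested female-biased genes, 5 rose and 2 fell, beside 21.2% of all genes higher and 6.33% lower. Of the female-biased genes, 4, 4 and 11 were called higher without WT tumour 1, 2 and 3, and 4, 4 and 4 without WT normal liver 1, 2 and 3. Cyp17a1, a steroid hydroxylase and lyase, was at 119, 72.5 and 54.7 TPM against 6.53, 3.27 and 16.7 TPM (3.25 ± 0.54, adjusted p = 0.0077). Acot3, a peroxisomal acyl-CoA thioesterase of the same list, went the other way, at 0.95, 0.567 and 0.132 TPM against 17.7, 19.3 and 18.4 TPM (-3.69 ± 0.22, adjusted p = 0.00029).

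Cholesterol synthesis genes were higher in the tumours. Of 23 genes 19 rose and none fell, beside 21.2% of all genes higher, with a median log2 fold change of 2.12. In 22 the tumours were above the normal livers without overlap, as was the case for 35.6% of all genes. After centring 16 rose, with tumours 1 and 2 averaged 16, and 15 to 20 with any 1 library left out. Sqle, squalene epoxidase, was at 39.3, 33.7 and 40.1 TPM in the tumours and 1.75, 2.98 and 0.708 TPM in the normal livers (3.86 ± 0.31, adjusted p = 0.00064). Mvk, mevalonate kinase, was at 48.2, 45.5 and 28.5 TPM against 3.52, 2.61 and 2.72 TPM (3.37 ± 0.24, adjusted p = 0.00046). Dhcr7, a sterol reductase at the end of the pathway, was at 79.8, 93.8 and 42.2 TPM against 6.23, 5.67 and 6.95 TPM (3.25 ± 0.31, adjusted p = 0.0011). Tumour 3 had the lowest Dhcr7 and Mvk of the tumours. Srebf2, the transcription factor that drives the pathway, also rose. CCAAT was in all 15 cholesterol synthesis windows available, a motif searched after the values were seen that 42.5% of all tested genes hold.

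Of 20 genes of de novo lipogenesis 10 rose and 2 fell, with 7 and 4 after centring. Of the lipogenic genes, 7, 9 and 10 were called higher without WT tumour 1, 2 and 3, and 7, 7 and 7 without WT normal liver 1, 2 and 3. Acly, which supplies cytosolic acetyl-CoA, was at 53.4, 44.5 and 32.2 TPM against 6.33, 8.21 and 9.75 TPM (2.27 ± 0.25, adjusted p = 0.0019). Fasn, fatty acid synthase, was at 28.4, 27.7 and 25.6 TPM against 9.73, 9.04 and 3.34 TPM (1.86 ± 0.35, adjusted p = 0.012), and Fads2, a desaturase of polyunsaturated fatty acids, at 364, 325 and 354 TPM against 77.5, 93 and 68.9 TPM (2.12 ± 0.19, adjusted p = 0.00084). The stearoyl-CoA desaturases parted. Scd1, the main hepatic form, was at 275, 302 and 278 TPM against 1146, 799 and 688 TPM (-1.59 ± 0.23, adjusted p = 0.0055), whereas Scd2, the form of brain and fetal liver, was at 71.8, 68.3 and 9.47 TPM against 0.405, 0.186 and 0.738 TPM (4.72 ± 0.73, adjusted p = 0.0062).

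Of 30 genes of fatty acid oxidation and other PPAR alpha targets, 12 fell and none rose, with a median of -0.84. After centring 14 fell, and with tumours 1 and 2 averaged 6. Of the oxidation genes, 6, 6 and 22 were called lower without WT tumour 1, 2 and 3, and 6, 6 and 7 without WT normal liver 1, 2 and 3. The mean level of the list, on the log2(TPM + 1) scale, was 5.34, 5.25 and 6.39 in tumours 1, 2 and 3 and 6.96, 7.23 and 6.83 in the normal livers, so tumour 3 lay between the other tumours and the normal livers. Acot1, a cytosolic acyl-CoA thioesterase, was at 1.23, 1.55 and 1.16 TPM against 46.4, 48.1 and 56.7 TPM (-4.47 ± 0.17, adjusted p = 5.8e-05). Acaa1b, a peroxisomal thiolase, was at 117, 148 and 385 TPM against 1471, 1875 and 1227 TPM (-2.99 ± 0.45, adjusted p = 0.0059). The values of Ppara itself differed by -0.83 ± 0.50 (adjusted p = 0.25), while Cpt1a, the gate of mitochondrial uptake, differed by 0.92 ± 0.38 (adjusted p = 0.12).

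Lipid droplet genes moved in both directions. Of 19 tested 5 rose and 6 fell, numbers that centring did not change. Of the droplet genes, 3, 3 and 7 were called lower without WT tumour 1, 2 and 3, and 2, 2 and 5 without WT normal liver 1, 2 and 3. The fatty acid binding proteins of fat and skin rose, Fabp5 at 102, 116 and 47.9 TPM against 1.9, 3.15 and 1.37 TPM (4.78 ± 0.38, adjusted p = 0.00059) and Fabp4 at 52.8, 59.6 and 19.5 TPM against 3.74, 3.21 and 5.23 TPM (3.02 ± 0.42, adjusted p = 0.0045), while the liver form Fabp1 fell by 2.99 on the log2 scale and was not called without WT tumour 1, WT tumour 2, WT normal liver 1 or WT normal liver 2. Fitm1, which partitions fat into droplets, was at 9.72, 16 and 2.8 TPM against 254, 225 and 95 TPM (-4.32 ± 0.61, adjusted p = 0.0047). Plin4, a droplet coat protein, was at 0.293, 0.337 and 0.196 TPM against 10.02, 11.6 and 9.22 TPM (-3.14 ± 0.16, adjusted p = 0.00015). Of 21 bile acid genes 4 rose and 8 fell. Of the bile acid genes, 7, 7 and 13 were called lower without WT tumour 1, 2 and 3, and 7, 8 and 8 without WT normal liver 1, 2 and 3. Slco1b2, a bile acid and drug uptake transporter, was at 6.5, 10.6 and 22.3 TPM against 171, 177 and 106 TPM (-3.56 ± 0.43, adjusted p = 0.0027). Cyp8b1, the enzyme that makes cholic acid, was at 40.1, 35.1 and 12.7 TPM against 225, 243 and 299.8 TPM (-3.23 ± 0.42, adjusted p = 0.0036), and Cyp27a1, of the acidic pathway, at 22.4, 25.7 and 73.1 TPM against 147, 181.13 and 180.3 TPM (-2.24 ± 0.44, adjusted p = 0.013). Cyp7a1, the rate-limiting enzyme of bile acid synthesis, fell by 1.64 and was not called without WT tumour 1, WT tumour 2 or WT normal liver 1.

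**Figure D3:**
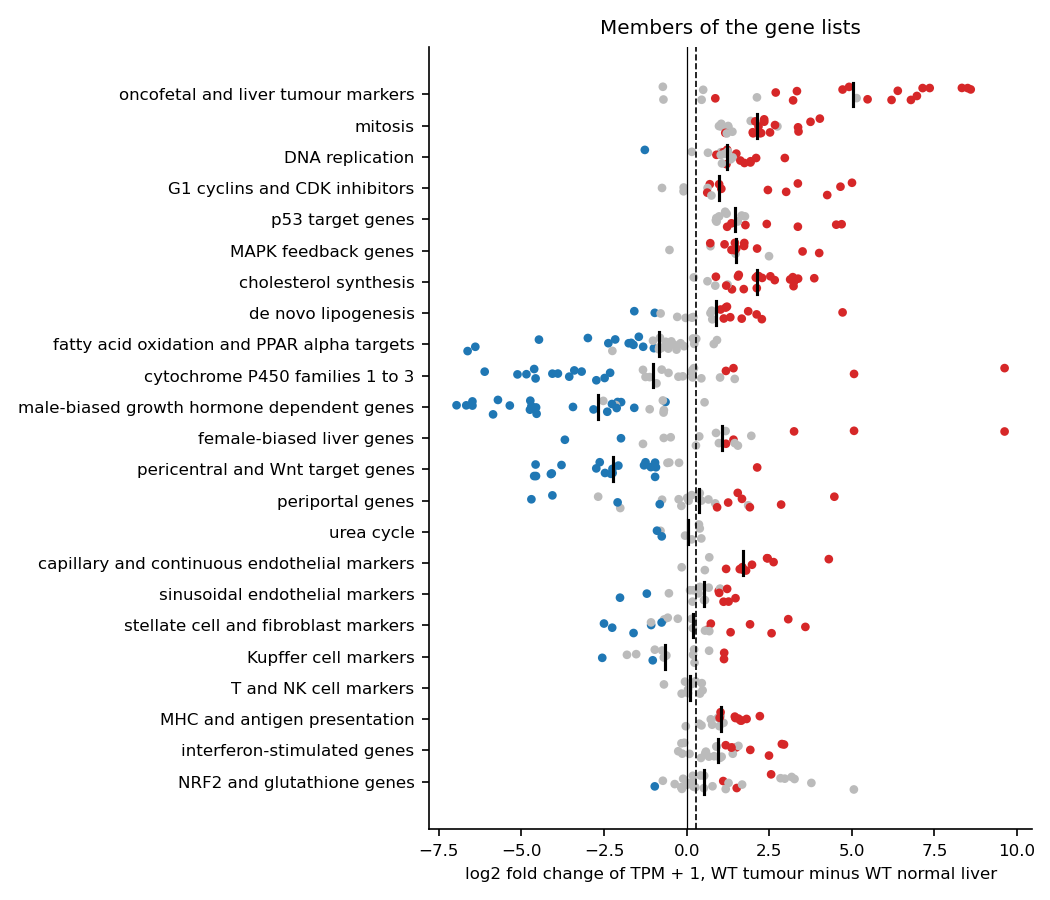
Each point is 1 tested gene of a list, placed by its log2 fold change of TPM + 1 (WT tumour minus WT normal liver). Red points rose, blue points fell and grey points did not pass the test, the black bars are list medians, and the dashed line is the median of all genes tested (0.29). Cholesterol synthesis and tumour marker genes lay mostly to the right, and pericentral and male-biased genes mostly to the left.

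Enzymes of amino acid and glucose metabolism mostly did not pass the test. Of 32 amino acid catabolism genes 4 rose and 6 fell, with 2 and 1 called when tumours 1 and 2 were averaged. Of the amino acid genes, 1, 1 and 4 were called lower without WT tumour 1, 2 and 3, and 0, 1 and 2 without WT normal liver 1, 2 and 3. Gldc, of the glycine cleavage system, was at 148, 122 and 109 TPM against 43.2, 37 and 61.7 TPM (1.42 ± 0.24, adjusted p = 0.0085). Gls2, the liver glutaminase, was at 512, 394 and 164 TPM against 66.4, 92.3 and 164 TPM (1.67 ± 0.50, adjusted p = 0.048, not called without WT tumour 1, WT tumour 2, WT normal liver 1 or WT normal liver 2, with adjusted p 0.0074 to 0.16 over the 6 fits). Prodh, which opens proline breakdown, was at 0.729, 0.968 and 5.04 TPM against 6.95, 9.34 and 17.4 TPM (-2.07 ± 0.53, adjusted p = 0.031, not called without WT tumour 1, WT tumour 2, WT normal liver 1, WT normal liver 2 or WT normal liver 3, with adjusted p 0.003 to 0.093 over the 6 fits). Of 14 genes of gluconeogenesis and hepatic glucose isozymes 2 rose and 1 fell. Fbp1, a gluconeogenic phosphatase, was at 1464, 1138 and 1860.1 TPM against 259, 343 and 650.4 TPM (1.91 ± 0.38, adjusted p = 0.013, not called without WT normal liver 1 or WT normal liver 2, with adjusted p 0.0092 to 0.053 over the 6 fits). Pklr, liver pyruvate kinase, was at 27, 29.3 and 56.8 TPM against 8.56, 12.7 and 5.83 TPM (1.93 ± 0.37, adjusted p = 0.012, not called without WT normal liver 1, with adjusted p 0.0086 to 0.053 over the 6 fits). Slc2a2, the hepatic glucose transporter, was at 7.27, 9.24 and 12.3 TPM against 32.9, 42.3 and 15.8 TPM (-1.48 ± 0.38, adjusted p = 0.029, not called without WT tumour 1, WT tumour 2, WT normal liver 1 or WT normal liver 2, with adjusted p 0.012 to 0.11 over the 6 fits). Of the hepatic glucose genes, 2, 2 and 3 were called higher without WT tumour 1, 2 and 3, and 0, 1 and 2 without WT normal liver 1, 2 and 3.

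Among 17 isozymes of other tissues and pentose phosphate genes 4 rose and none fell, beside 21.2% of all genes higher and 6.33% lower. Of these isozymes, 3, 3 and 10 were called higher without WT tumour 1, 2 and 3, and 3, 3 and 3 without WT normal liver 1, 2 and 3. Pygb, the brain form of glycogen phosphorylase, was at 22.4, 21.4 and 24.1 TPM against 0.429, 0.585 and 0.737 TPM (3.90 ± 0.16, adjusted p = 7.7e-05), with little spread among the tumours. Aldoc, the brain form of aldolase, was at 6.08, 7.24 and 9.51 TPM against 1.67, 2.59 and 1.79 TPM (1.51 ± 0.21, adjusted p = 0.0047). G6pdx, the entry to the pentose phosphate pathway, was at 3.69, 5.81 and 4.38 TPM against 1.1, 0.731 and 1.03 TPM (1.51 ± 0.20, adjusted p = 0.0036), and Pgd, the later dehydrogenase, at 62.6, 64.5 and 10.5 TPM against 5.44, 5.48 and 4.68 TPM (2.56 ± 0.65, adjusted p = 0.03, not called without WT tumour 1, WT tumour 2, WT normal liver 1, WT normal liver 2 or WT normal liver 3, with adjusted p 8.1e-05 to 0.095 over the 6 fits).

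Targets of NRF2, the factor that induces antioxidant and glutathione genes, split the tumours. Of 28 tested 3 rose and 1, the malic enzyme Me1, fell in the full comparison, and Me1 was not called without WT tumour 1, WT tumour 2, WT normal liver 1 or WT normal liver 2. Of the NRF2 genes, 1, 1 and 18 were called higher without WT tumour 1, 2 and 3, and 1, 1 and 1 without WT normal liver 1, 2 and 3. Nqo1, a quinone reductase, was at 291, 284 and 11.7 TPM in tumours 1, 2 and 3 and 7.02, 10.7 and 14.2 TPM in the normal livers (3.18 ± 1.18, adjusted p = 0.087). Cbr3, a carbonyl reductase, was at 539.7, 491 and 2.35 TPM against 1.17, 2.6 and 2.06 TPM (5.06 ± 1.86, adjusted p = 0.086), Srxn1, sulfiredoxin, at 737, 619 and 51.6 TPM against 30.4998, 40.02 and 37.8 TPM (2.97 ± 0.96, adjusted p = 0.059), and Gsta1, a glutathione transferase, at 303, 301 and 1.3 TPM against 2.62, 1.88 and 6.91 TPM (3.77 ± 1.83, adjusted p = 0.16). Among the tumours these genes were high in tumours 1 and 2 only. They were not called, and were chosen for description after their values were seen. They were also high in 1 sample of the tissue beside tumours, WT non-tumour liver 2, in which Nqo1 was at 118, Cbr3 at 143, Srxn1 at 444 and Gsta1 at 917 TPM. The mean level of the NRF2 list, on the log2(TPM + 1) scale, was 7.08, 7.001 and 4.77 in WT tumours 1, 2 and 3, 5.03, 5.17 and 5.31 in the normal livers and 5.75, 7.84 and 5.46 in the non-tumour livers, so it was highest in non-tumour liver 2. Gss, glutathione synthetase, rose with 74.3, 75.2 and 42.1 TPM against 24, 31.7 and 29.3 TPM (1.11 ± 0.27, adjusted p = 0.026, not called without WT tumour 1, WT tumour 2, WT normal liver 1, WT normal liver 2 or WT normal liver 3, with adjusted p 0.002 to 0.1 over the 6 fits). The core of the antioxidant response element, TGACNNNGC, was in 8 of 23 NRF2 windows (34.8%), beside 17% of all tested genes, 18.8% of those that rose and 13.7% of those that fell.

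Secreted liver proteins moved in both directions. Alb, albumin, was at 126122, 107060 and 83554 TPM in the tumours and 31805, 39561 and 29049.8 TPM in the normal livers (1.65 ± 0.26, adjusted p = 0.0065). Ahsg, fetuin-A, was at 37698, 35211 and 21736 TPM against 3100.1, 3719.9 and 3827 TPM (3.12 ± 0.27, adjusted p = 0.00084). Serpina1a, an alpha-1-antitrypsin, was at 8533, 8474 and 7410.5 TPM against 3231, 3512 and 3945 TPM (1.19 ± 0.20, adjusted p = 0.0076). These highly expressed genes take a large share of every library. They belong to the 12 hepatocyte markers, of which 4 rose, 1 (Cyp3a11, given above) fell and 7 were not called. After centring 3 of the markers rose and 2 fell. Of 22 acute-phase genes 5 rose and 1 fell, near the shares of all genes (21.2% higher and 6.33% lower). Saa1 and Saa2, serum amyloid A, differed by -1.55 ± 1.52 (adjusted p = 0.48) and -1.70 ± 1.70 (adjusted p = 0.48). Of the acute-phase genes, 4, 6 and 7 were called higher without WT tumour 1, 2 and 3, and 4, 4 and 5 without WT normal liver 1, 2 and 3. Il1rn, an antagonist of interleukin-1, was at 28.5, 19.6 and 25.6 TPM against 0.506, 1.36 and 0.675 TPM (3.80 ± 0.24, adjusted p = 0.0003), and Steap4, a metalloreductase, at 35.6, 34.6 and 79.2 TPM against 6.91, 8.77 and 6.13 TPM (2.52 ± 0.34, adjusted p = 0.0041). Hamp, hepcidin, the hormone that limits iron uptake, was at 941, 872 and 518 TPM against 9307, 10436 and 28675 TPM (-4.22 ± 0.48, adjusted p = 0.0022).

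Of 18 apolipoprotein genes 4 rose and 2 fell, but 1 rose and 5 fell after centring, and 1 rose with tumours 1 and 2 averaged. Over all genes 21.2% rose and 6.33% fell, and after centring 8.71% and 12.5%, so the share of rises was near that of all genes. Of the apolipoprotein genes, 2, 1 and 4 were called higher without WT tumour 1, 2 and 3, and 1, 2 and 2 without WT normal liver 1, 2 and 3. Apom, of high-density lipoprotein, was at 1253, 1609 and 1999 TPM against 78.1, 75.2 and 199.9 TPM (3.90 ± 0.41, adjusted p = 0.0017). Apoa2, a structural protein of the same particle, was at 19323, 24880.2 and 33636 TPM against 103420, 70032 and 95231 TPM (-1.80 ± 0.29, adjusted p = 0.0074), and Apoc4 at 555, 668 and 545 TPM against 1862, 1283 and 2229 TPM (-1.57 ± 0.26, adjusted p = 0.0073). Of 33 complement and coagulation genes 8 rose and 5 fell, a share of rises near that of all genes. Of the complement and coagulation genes, 3, 3 and 8 were called lower without WT tumour 1, 2 and 3, and 3, 3 and 3 without WT normal liver 1, 2 and 3. F11, coagulation factor XI, was at 168, 164 and 56.5 TPM against 21.6, 23.9 and 19.7 TPM (2.37 ± 0.42, adjusted p = 0.0096). C6, of the membrane attack complex, was at 4.56, 5.34 and 16.9 TPM against 44.5, 74.4 and 63.7 TPM (-2.82 ± 0.46, adjusted p = 0.0075), and Klkb1, plasma prekallikrein, at 19.8, 20.2 and 53.7 TPM against 151, 123 and 126 TPM (-2.21 ± 0.39, adjusted p = 0.0092). C9, which forms the pore of that complex, was at 15.6, 11.7 and 126 TPM against 180.1, 244 and 191 TPM (-2.77 ± 0.82, adjusted p = 0.047, not called without WT tumour 1, WT tumour 2, WT normal liver 1, WT normal liver 2 or WT normal liver 3, with adjusted p 0.00017 to 0.14 over the 6 fits).

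Markers of capillary endothelium were higher in the tumours. In bulk tissue more cells of a type and more RNA per cell cannot be told apart, and the same holds for losses. Of 14 tested capillary and continuous endothelial markers 11 rose and none fell, with 10 after centring. Of the capillary markers, 9, 9 and 12 were called higher without WT tumour 1, 2 and 3, and 7, 8 and 10 without WT normal liver 1, 2 and 3. Their summed level was 149 to 275 TPM in the tumours and 59.3 to 63.7 TPM in the normal livers. Esm1, a proteoglycan of endothelial tip cells, was at 40.1, 35.3 and 21.7 TPM against 0.492, 0 and 1.96 TPM (4.30 ± 0.43, adjusted p = 0.0014). Apln, the tip-cell ligand apelin, was at 6.72, 4.95 and 2.55 TPM and listed at 0 in all normal livers (adjusted p = 0.0027). Cdh5, the cadherin of endothelial junctions, was at 23.5, 26.1 and 13.4 TPM against 2.35, 2.49 and 4.19 TPM (2.43 ± 0.30, adjusted p = 0.0029). No normal liver reached the lowest tumour for these genes. Of 18 sinusoidal endothelial markers 6 rose and 2 fell, of which Rspo3 is given above. Of the sinusoidal markers, 4, 5 and 8 were called higher without WT tumour 1, 2 and 3, and 4, 5 and 5 without WT normal liver 1, 2 and 3. Kdr, a VEGF receptor, was at 8.73, 8.68 and 7.47 TPM against 2.76, 1.83 and 2.47 TPM (1.48 ± 0.17, adjusted p = 0.0025), while the values of the defining markers Stab2, Lyve1 and Clec4g differed by 0.40 ± 0.15 (adjusted p = 0.086), 1.01 ± 0.40 (adjusted p = 0.11) and 0.20 ± 0.32 (adjusted p = 0.67).

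Of 21 tested stellate cell and fibroblast markers 7 rose and 5 fell, and after centring 5 rose and 8 fell. Of the stromal markers, 5, 5 and 10 were called higher without WT tumour 1, 2 and 3, and 4, 5 and 6 without WT normal liver 1, 2 and 3. Fibrillar collagens were among the rises, Col1a1 at 14.5, 21.2 and 14.3 TPM against 0.808, 1.58 and 0.89 TPM (3.07 ± 0.23, adjusted p = 0.0005) and Col3a1 at 14.2, 17.3 and 10.9 TPM against 1.7, 1.18 and 1.7 TPM (2.57 ± 0.21, adjusted p = 0.00065). Acta2, smooth muscle actin, was at 29.8, 34.7 and 15.9 TPM against 0.579, 0 and 5.7 TPM (3.59 ± 0.69, adjusted p = 0.012, not called without WT normal liver 1, with adjusted p 0.0034 to 0.059 over the 6 fits). Ecm1, an extracellular matrix protein, was at 20.5, 28.7 and 6.07 TPM against 114, 54.9 and 127 TPM (-2.50 ± 0.58, adjusted p = 0.022, not called without WT normal liver 1 or WT normal liver 3, with adjusted p 0.012 to 0.087 over the 6 fits), and Dcn and Hand2 also fell.

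Markers of leukocytes mostly did not pass the test. Of 14 Kupffer cell markers 2 rose and 2 fell. Clec4f, a lectin of Kupffer cells, was at 2.79, 9.76 and 9.31 TPM against 50.1, 36.7 and 43.3 TPM (-2.56 ± 0.41, adjusted p = 0.0072), with all tumours below all normal livers. C1qb and C1qc, complement genes of macrophages, rose, with 1.14 ± 0.34 (adjusted p = 0.048) and 1.13 ± 0.32 (adjusted p = 0.04), and Cd163, a haemoglobin scavenger receptor, fell (-1.03 ± 0.26, adjusted p = 0.029). C1qb and C1qc were called only without tumour 3 among the fits with 1 library left out, Cd163 only without tumour 3 or normal liver 3. After centring no Kupffer marker rose. Of 11 recruited macrophage and dendritic markers 3 rose, Cd9, Lpl and Lyz2 (not called without WT tumour 1, WT tumour 2, WT normal liver 1, WT normal liver 2 or WT normal liver 3), of which Cd9, a tetraspanin also made by other cells, was at 457, 383 and 112 TPM against 20.8, 30.8 and 26.8 TPM (3.34 ± 0.52, adjusted p = 0.0065). Of these 11 markers, 2, 2 and 7 were called higher without WT tumour 1, 2 and 3, and 2, 2 and 2 without WT normal liver 1, 2 and 3. None of 10 T and NK cell markers and none of 5 neutrophil markers passed the test, and the T cell receptor gene Trbc2 ranged from 1.15 to 11.4 TPM among the tumours. Of 9 B and plasma cell markers Igkc (-1.26 ± 0.33, adjusted p = 0.032) and Jchain (-1.12 ± 0.25, adjusted p = 0.02) fell, and Igkc was not called without WT tumour 1, WT normal liver 1, WT normal liver 2 or WT normal liver 3, Jchain not without WT tumour 1, WT normal liver 2 or WT normal liver 3.

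Of 18 genes of antigen presentation 9 rose and none fell, with 7 after centring and 9 with tumours 1 and 2 averaged. Of the antigen presentation genes, 9, 8 and 15 were called higher without WT tumour 1, 2 and 3, and 7, 8 and 8 without WT normal liver 1, 2 and 3. H2-Q7, a non-classical class I molecule, was at 98.8, 111 and 105 TPM against 20.03, 21.6 and 23.9 TPM (2.21 ± 0.16, adjusted p = 0.00049), and Tap1, the peptide transporter, at 31.3, 35.7 and 26.4 TPM against 7.05, 9.08 and 8.26 TPM (1.81 ± 0.19, adjusted p = 0.0015). Of 24 interferon-stimulated genes 8 rose and none fell, with 5 after centring. Of the interferon-stimulated genes, 5, 5 and 18 were called higher without WT tumour 1, 2 and 3, and 5, 6 and 5 without WT normal liver 1, 2 and 3. Cxcl9 and Cxcl10 encode chemokines that draw T cells. Cxcl9 was at 21.4, 32.6 and 10.7 TPM against 2.15, 0.895 and 2.22 TPM (2.95 ± 0.41, adjusted p = 0.0046), and Cxcl10 at 10.3, 14.3 and 4.98 TPM against 0.458, 0.55 and 1.57 TPM (2.49 ± 0.39, adjusted p = 0.0065). Oas1a, an antiviral synthetase, was at 19.1, 21.5 and 13.6 TPM against 1.64, 1.97 and 1.12 TPM (2.88 ± 0.23, adjusted p = 0.00059).

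Of 20 tested genes of epithelial-mesenchymal transition (EMT) 10 rose and none fell, but 4 rose and 1 fell after centring. Of the EMT genes, 3, 4 and 9 were called higher without WT tumour 1, 2 and 3, and 2, 4 and 5 without WT normal liver 1, 2 and 3. Both epithelial and mesenchymal genes were among the rises. Cdh1 is given above, and the tight junction gene Cldn1 was at 53.9, 45.1 and 67.9 TPM against 14.4, 19.9 and 15.1 TPM (1.69 ± 0.22, adjusted p = 0.0035). Vim, the mesenchymal filament vimentin, was at 29.2, 32 and 11.47 TPM against 5.47, 3.87 and 6.1 TPM (1.93 ± 0.39, adjusted p = 0.015, not called without WT tumour 1, WT normal liver 1 or WT normal liver 2, with adjusted p 0.0006 to 0.058 over the 6 fits). Snai1, a repressor of Cdh1, was at 3.96, 2.93 and 2.24 TPM against 0.454, 0.972 and 0.709 TPM (1.23 ± 0.23, adjusted p = 0.011, not called without WT normal liver 1, with adjusted p 0.0044 to 0.052 over the 6 fits). Itga6, a laminin receptor subunit, also rose (1.72 ± 0.43, adjusted p = 0.029, not called without WT tumour 1, WT tumour 2, WT normal liver 1, WT normal liver 2 or WT normal liver 3, with adjusted p 0.00082 to 0.1 over the 6 fits). Snai2 and the N-cadherin gene Cdh2 were not called, with 0.14 ± 0.25 (adjusted p = 0.7) and -0.68 ± 0.38 (adjusted p = 0.22), and the sign of Snai2 turned to -0.25 after centring. Cdh2 was called in the fit without WT tumour 3 alone among those that left out a library (adjusted p = 0.02). Of 9 cholangiocyte and progenitor markers 3 rose, Prom1 (2.31 ± 0.44, adjusted p = 0.012), Aqp1 (1.03 ± 0.22, adjusted p = 0.017) and Sox9 (0.92 ± 0.22, adjusted p = 0.024), and 1 did after centring. Prom1 was not called without WT normal liver 1, Aqp1 not without WT normal liver 1 or WT normal liver 2 and Sox9 not without WT tumour 1, WT tumour 2, WT normal liver 1 or WT normal liver 2.

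Of 24 genes followed by the study, 19 could be tested, of which 11 rose and 3 fell. Without WT tumour 3, 11 were called higher and 6 lower, and without WT normal liver 1, 8 and 2. The study chose them partly on these samples, so the count is not independent evidence of a direction. Besides Afp, Gpc3, Ccnd1, Ccne1, Cdh1, Dusp4, Fgfr2 and Snai1, Gstp2, a pi-class glutathione transferase with 54.3% of its windows shared, was at 712, 581 and 499.8 TPM against 39.4, 68.8 and 70.4 TPM (3.34 ± 0.28, adjusted p = 0.00071). Pcna, the sliding clamp of DNA replication, was at 36.3, 36.5 and 18.4 TPM against 11.8, 13.1 and 13.8 TPM (1.11 ± 0.28, adjusted p = 0.03, not called without WT tumour 1, WT tumour 2, WT normal liver 1, WT normal liver 2 or WT normal liver 3, with adjusted p 0.00091 to 0.11 over the 6 fits). Timp3, an inhibitor of metalloproteinases, rose as well (0.97 ± 0.25, adjusted p = 0.03, not called without WT tumour 1, WT tumour 2, WT normal liver 1 or WT normal liver 2, with adjusted p 0.042 to 0.1 over the 5 fits in which it was tested, that without WT tumour 3 leaving it out). Ndrg2, a growth-restraining gene, was at 143, 156 and 190.3 TPM against 564, 486 and 684 TPM (-1.81 ± 0.21, adjusted p = 0.0025), and Aldh3a2, a fatty aldehyde dehydrogenase, at 35.9, 39.6 and 12.2 TPM against 193, 231 and 88.6 TPM (-2.56 ± 0.53, adjusted p = 0.016, not called without WT normal liver 1 or WT normal liver 2, with adjusted p 0.011 to 0.07 over the 6 fits). Cbx7, the Polycomb subunit on which the study centred, was at 0.298, 0.469 and 2.31 TPM in the tumours and 1.66, 2.1 and 3.85 TPM in the normal livers (-0.89 ± 0.41, adjusted p = 0.15), and Tef, a clock-output factor, at 9.13, 7.58 and 15.7 TPM against 15.1, 24.4 and 21.1 TPM (-0.88 ± 0.30, adjusted p = 0.07). Neither passed the test with all 6 libraries. Without WT tumour 3, and in no other fit that left out a library, both were called (adjusted p = 0.015 for Cbx7 and 0.01 for Tef). The microRNA precursor genes Mir181a-1, Mir181b-1, Mir181a-2 and Mir181b-2 were listed at 0 in all 6 libraries and Foxp2 was below the expression minimum, so none of these was tested.

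All 13 protein-coding genes of the mitochondrial genome were tested, and 9 fell, with a median log2 fold change of -1.57 and 12 lower after centring. Of the mitochondrial genes, 6, 6 and 9 were called lower without WT tumour 1, 2 and 3, and 1, 4 and 7 without WT normal liver 1, 2 and 3. When TPM was rescaled to nuclear genes alone, a setting added after the data were seen, 2112 of 13898 genes rose and 999 fell.

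Set against WT non-tumour livers, which had received DEN, the same 3 WT tumours gave 302 genes higher (2.16%) and 290 lower (2.07%) of 14003 tested. Because both comparisons hold the WT tumours, their values are given side by side only. Pericentral genes had 0 higher and 14 lower of 24, and oncofetal and tumour markers 10 higher and 0 lower of 21. Cyp2e1 stood at 6199.8, 8049 and 8350.4 TPM in the non-tumour livers, and its log2 fold change to the tumours was -5.05 (adjusted p = 0.0015). Gpc3 stood at 1.22, 0.182 and 0.355 TPM there, with 6.93 (adjusted p = 0.00086), and Dusp5 at 1.03, 2.03 and 0.87 TPM, with 3.41 (adjusted p = 0.0015). In every non-tumour liver these 3 genes lay nearer the normal livers than the tumours. Dusp5 was nevertheless above every normal liver in all 3, and Gpc3 in non-tumour liver 1. By contrast cholesterol synthesis had 0 higher and 0 lower of 23, mitosis 0 higher and 0 lower of 24 and male-biased genes 0 higher and 4 lower of 26. WT non-tumour liver 2 stood apart from the others in these lists. Sqle was at 1.54, 46.6 and 4.57 TPM in non-tumour livers 1, 2 and 3, Cdc20 at 1.3, 29.6 and 0.256 TPM, Ccnd1 at 2.02, 31.9 and 3.6 TPM and Mup7 at 24.9, 0.119 and 542 TPM, so in each the second library lay on the side of the tumours. Without it 843 genes were called. The 13 mitochondrial protein genes had 0 higher and 0 lower of 13 in this comparison, and mitochondrially encoded transcripts took 9.94, 5.34 and 4.52% of TPM in the non-tumour livers.

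**Figure D4:**
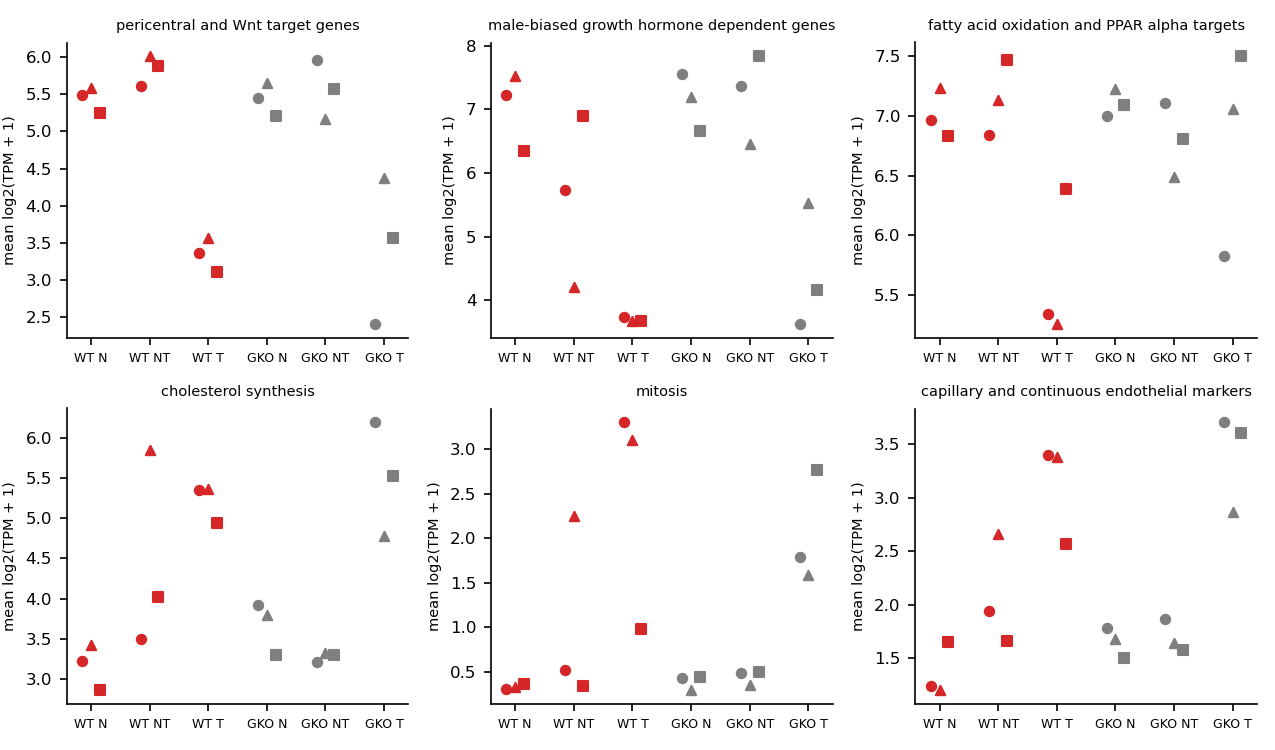
Mean log2(TPM + 1) of the tested genes of 6 lists (1 panel each) in normal liver (N), non-tumour liver (NT) and tumour (T) of WT (red) and GKO (grey) mice, with 1 point per library and circles, triangles and squares for replicates 1, 2 and 3. WT non-tumour liver 2 (triangle) lay with the tumours for cholesterol synthesis, and WT tumour 3 (square) lay below the other WT tumours for mitosis.

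In GKO mice the comparison of tumours with normal livers, which shares no library with that of WT mice, gave 2255 genes higher (16.2%) and 547 lower (3.93%) of 13928 tested. Mir181a-1, a precursor gene of the deleted cluster, was listed at 0 in all WT and GKO libraries but GKO tumour 3 (1.40 TPM), so these values say nothing of the genotype. Of 13050 genes tested in both, 3661 were called in WT and 2751 in GKO mice, and 1888 were called in the same direction in both, which is 51.6% of the WT calls and 68.6% of the GKO calls. 3 genes were called in opposite directions. Across genes, which are not independent replicates, the fold changes correlated at 0.823. Among GKO livers male-biased genes had 0 higher and 20 lower of 27, pericentral genes 1 higher and 12 lower of 24, cholesterol synthesis 15 higher and 0 lower of 23, mitosis 15 higher and 0 lower of 19 and tumour markers 12 higher and 1 lower of 22. Cyp2a4 was at 11422, 2899 and 1942 TPM in GKO tumours and 25.1, 9.64 and 16 TPM in GKO normal livers (7.90, adjusted p = 0.002), and Tff3 at 3994, 997 and 3276 against 14.9, 11.1 and 3.57 TPM (7.94, adjusted p = 0.0019). Afp was at 18.6, 55.6 and 13 TPM in GKO tumours, each below every WT tumour, with 3.70 (adjusted p = 0.0053). Cyp4a10 was at 2.72, 301 and 685 TPM in GKO tumours against 1106, 1008 and 1116 TPM (-3.55, adjusted p = 0.17), so the call of the WT comparison was not made there. Fatty acid oxidation genes had 3 higher and 2 lower of 30 in GKO mice. In the test of the difference between the GKO and the WT effect, 2 of 13867 genes passed (0.0144%), and 741 had an unadjusted p under 0.05, so a call in one genotype and not in the other is not shown to be a difference between them.

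**Figure D5:**
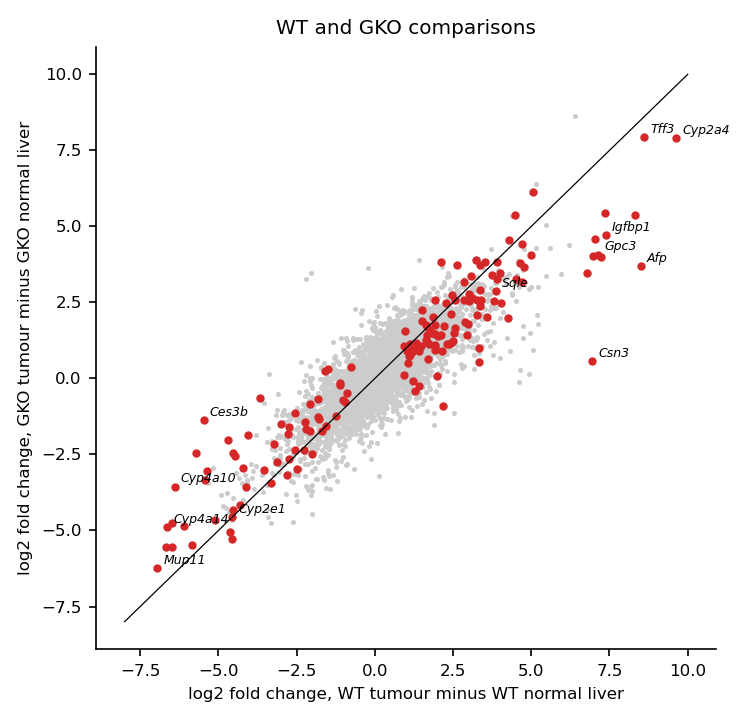
Log2 fold change of tumour against normal liver in WT mice (x axis) and in GKO mice (y axis) for the 13050 genes tested in both. Red points are the genes named by the rule that were called in WT mice and grey points all others, and the line marks equal changes. Most red points lay near the line, while Csn3 and Afp lay below it.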

How the data were processed

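Total RNA of flash-frozen liver tissue was sequenced on an Illumina platform. The authors deposited TPM values for 54838 genes in 18 libraries, and per the labels reads were aligned to mm10 with STAR 2.7.3a and counted with featureCounts 2.0.0. How TPM was computed and from which annotation is not given in the sources used here. Multiplying TPM by GENCODE exon lengths recovered whole reads for 97.95 to 98.67% of values of up to 30 reads (tolerance 0.02), which supplied the depths and an alternative test.

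Groups were taken from the sample labels. Values were tested as log2(TPM + 1) in limma 3.58.1 (lmFit, eBayes with trend, 2-sided) under R 4.3.3, on genes averaging 0.5 TPM or more over the 6 libraries compared, with Benjamini-Hochberg adjustment over all genes tested and a threshold of 0.05. Genes named are the 12 largest rises and falls among called genes whose groups do not overlap, up to 4 called members of each list by size of change (2 as values where none was called), the study's genes and defining cell type markers. Some called members are not reported here. Other names are members given with their list or are stated as chosen afterwards. The members and the 43 gene lists were chosen with earlier results of these data known. Alternatives were another pseudocount and filters, quantile normalization, centring on medians, 1 fit of all 18 samples, no trend, a replicate block, voom on recovered reads, tumours 1 and 2 averaged, each library left out and, added after seeing the data, nuclear genes only. The fits were tested on simulated data. Promoter windows are from RefSeq (GRCm38.p6, 32851 windows). Gene positions are from GENCODE on GRCm38, the assembly of mm10. Shared windows are 50-base stretches of a gene's exons found in a named family member.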

Additional observations from a re-analysis of the deposited data

Results flagged for a closer look

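Csn3 and Gm36325 were marked because the effect of tumour against normal liver differed between GKO and WT mice in the test of that difference. For Csn3 the GKO effect minus the WT effect was -6.36 ± 0.59 on the log2 scale (adjusted p = 0.0032). Its level was 164, 134 and 92.3 TPM in WT tumours, 0, 0.136 and 0 TPM in WT normal livers, 0.0782, 2.89 and 0.088 TPM in GKO tumours and 0.177, 0.0598 and 0.113 TPM in GKO normal livers, so 3 of 3 WT tumours were high and no GKO tumour was. For Gm36325 the difference was -3.15 ± 0.31 (adjusted p = 0.0034), from 8.18, 9.24 and 13.7 TPM in WT tumours, 0 in all WT normal livers and 0, 0.424 and 0.465 TPM in GKO tumours. With normal livers at 0 the size depends on the pseudocount and is no bound. Neither passed with a pseudocount of 0.1 or with voom on recovered reads. Why the genotypes differed in these genes was not tested.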

How the results depend on the processing

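The number of genes called in WT tumours against WT normal livers was 3750 (2887 higher and 863 lower). It was 2413 (1861 and 552) with a minimum of 5 TPM, where 6704 genes were tested, and 2059 (1593 and 466) with tumours 1 and 2 averaged. Median centring gave 1188 higher and 1705 lower, quantile normalization 1399 and 1442, and voom on recovered reads 1645 higher. With 1 library left out the range was 1428 without WT normal liver 1 to 5525 without WT tumour 3, with 1080 to 4248 higher and 348 to 1277 lower. The cause of these differences was not tested. Of 160 named genes with a call, none changed direction and 99 kept their call in every alternative that tested them. The losses were 32 without a filter, 30 with tumours 1 and 2 averaged, 26 with voom and up to 47 with 1 library left out. Snai2, not called, changed sign, to -0.25 with median centring, -0.18 with quantile normalization, -0.078 with voom and, with 1 library left out, -0.058 (without WT normal liver 1) to 0.37. WT tumours against WT non-tumour livers gave 592 calls, 1649 with all 18 samples in one fit, and 163 to 1363 with 1 library left out, the extremes being without WT tumours 2 and 3. GKO tumours against GKO normal livers gave 2802, and 930 (without GKO normal liver 2) to 2463 with 1 library left out. The difference of effects between genotypes gave 2 calls, 0 with a pseudocount of 0.1 and 0 with voom, 1 with a minimum of 5 TPM, 4 with median centring, 6 with all 18 samples, and 2 to 127 with 1 library left out, with 127 without WT tumour 3, 24 without GKO tumour 2, 18 without GKO tumour 1 and 4 without GKO normal liver 3. Depth limits genes of a few TPM, and with 3 samples a group a missed call does not show that levels were alike.

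Same-numbered tumours and normal livers did not deviate together (correlations of deviations across genes -0.07, -0.18 and -0.06). Tumours came from DEN-treated and normal livers from untreated mice, so no tumour shared a mouse with a normal liver. These values cannot show whether libraries share a litter or batch, or whether libraries of the same group share a mouse. Pairing of tumours with non-tumour livers was not tested. With a replicate block 2272 genes were called (1738 higher and 534 lower), 361 in the comparison with WT non-tumour livers, and 1614 in GKO mice. Of the 160 named calls 19 were lost.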

Other observations

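Of 19 circadian clock genes, Arntl (1.29 ± 0.33, adjusted p = 0.031) and Npas2 (1.25 ± 0.35, adjusted p = 0.04), which encode activators of the clock, rose and Usp2 (-1.11 ± 0.19, adjusted p = 0.0081), a rhythmic ubiquitin protease, fell. Over all genes 21.2% rose and 6.33% fell, so clock genes were not called more often than other genes. After median centring none of the clock genes rose and 2 fell, and with tumours 1 and 2 averaged none rose and 1 fell. Arntl and Npas2 were called only without WT tumour 3 among the 6 fits that left out a library. The time of day of harvest was not tested. Of 19 genes of Polycomb repressive complex 1, Phc2 rose (1.08 ± 0.18, adjusted p = 0.0079) and no other passed the test. Of 5 haemoglobin genes, which report blood in a sample, Hbb-bs (2.02 ± 0.31, adjusted p = 0.006) and Hbb-bt (1.42 ± 0.20, adjusted p = 0.0044) rose, at 328, 402 and 384 TPM in the tumours and 97, 58.2 and 131 TPM in the normal livers for Hbb-bs. The part of blood in the other results was not tested.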
